A study of Mus musculus with 8 samples.

Results

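Genes used to recognise lymphatic endothelium were examined in the ribosome-bound RNA of mouse lung endothelial cells. They were the 7 genes Prox1, Lyve1, Mmrn1, Ccl21a, Reln, Thy1 and Flt4, taken by symbol from count tables that list 23238 distinct genes. The rule names genes known from lymphatic endothelium and sets no threshold on their values, but it was drawn up with earlier results of these data known. Levels are counts scaled to a library total of 1000000 (CPM), in 4 libraries from Sox17-deleted hypoxic mice and 4 from control mice in normoxia.

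The Sox17-deleted hypoxic mice were Cdh5-CreERT2;Sox17fl/fl;RPL22tm1.1Psam, and the controls were Cdh5-CreERT2; RPL22tm1.1Psam, both on C57BL/6J. Cdh5-CreERT2 is a recombinase that is driven by the endothelial Cdh5 promoter and acts once tamoxifen is given. The Rpl22 allele then puts a haemagglutinin tag on ribosomes of the recombined cells, so that pulling down the tag from whole lung enriches endothelial transcripts. Every mouse, controls included, was given tamoxifen at 8 weeks of age, as 2 mg a day for 5 days. From 10 weeks the Sox17-deleted mice spent 3 weeks in hypoxia and the controls 3 weeks in room air. Genotype and oxygen differed together, so their shares in any difference below cannot be told apart. In a pulldown from tissue, fewer cells of a type and less RNA per cell cannot be told apart either. The deposited names of Sox17-deleted hypoxic libraries 2, 3 and 4 share a stem, and whether these 3 libraries come from separate mice or are repeats from the same mouse is not given. Throughout, n counts libraries, and the tests measure the spread between libraries, which may be partly technical.

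Lymphatic vessels drain fluid and guide immune cells out of the lung. Their endothelial cells arise in the embryo from veins, when SOX18, a close relative of SOX17, and NR2F2 switch on Prox1, and PROX1 then keeps up the lymphatic programme throughout life. VEGF-C and VEGF-D drive lymphatic growth through the receptor VEGFR-3, encoded by Flt4, and the chemokine CCL21 draws CCR7-bearing dendritic cells and T cells into the vessels. Most of these genes are not private to lymphatics: Lyve1 and Flt4 are also transcribed in blood endothelium of the mouse lung, Thy1 in T cells and fibroblasts, Mmrn1 in megakaryocytes, and Lyve1 in a subset of macrophages.

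In the mouse, CCL21 is encoded by several near-identical gene copies, and which copy a read is given to decides what the Ccl21a values mean. Ccl21a encodes the form with a serine, known from lymphoid organs, and Ccl21b and Ccl21c the form with a leucine, known from lymphatic vessels of other tissues. The stretch below is shown because it holds every difference between the coding sequences of Ccl21a and Ccl21b, 2 of 402 bases in the GENCODE M21 transcripts. It runs from base 73 to base 204 of the coding sequence, with the differing bases in capitals.
Ccl21a: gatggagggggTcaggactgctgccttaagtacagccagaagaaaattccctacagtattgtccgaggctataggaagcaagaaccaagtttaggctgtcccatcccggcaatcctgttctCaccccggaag
Ccl21b: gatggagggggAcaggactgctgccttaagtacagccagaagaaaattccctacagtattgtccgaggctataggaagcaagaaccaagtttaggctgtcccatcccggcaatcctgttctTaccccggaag

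Counted from the first base of the start codon, with the Ccl21a base first, the differences are T84A and C194T. The predicted genes Gm10591, Gm13304 and Gm21541 have the same coding sequence as Ccl21b at both positions. Over the last 300 bases of the transcript, the end from which 3′ tags are read, Gm13304 and Gm21541 each differ from Ccl21a at 3 bases. Elsewhere in that stretch these copies are identical, and a read from there matches each of them equally well. For Ccl21b and Gm10591 the 3′ end could not be compared, since their annotated transcripts hold only the coding sequence. Ccl21c and Gm1987 were not compared. What separates the reads of Ccl21a from those of Ccl21b at the 3′ end is thus not shown.

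Library totals ranged from 7000313 to 12913304 counts in the Sox17-deleted hypoxic libraries and from 10567561 to 11884614 in the controls, so that 3 counts correspond to 0.232 to 0.429 CPM. Genes with a count numbered 8019 to 8708 in the Sox17-deleted hypoxic libraries and 9821 to 10429 in the controls. Sox17, the deleted gene, had 473, 31, 6 and 41 counts in Sox17-deleted hypoxic libraries 1 to 4, against 3072, 2591, 2442 and 2442 in the control libraries. Library 1 of the Sox17-deleted hypoxic group thus kept the most Sox17. Whether the sequenced 3′ end lies in the deleted part is not given in the labels. The values of Lyve1, Ccl21a, Mmrn1, Hhex, Gja4 and Piezo1 are also given without that library, a choice made by no preset rule. Library 1 was also the highest of its group for Gata2, Tie1, Nrp2, Ackr2 and Nfatc1, whose means without it are not given. The libraries left are those whose deposited names share a stem, and they may be repeats from the same mouse. Markers of endothelium in general, 14 genes including Pecam1 and Cdh5, were all detected and summed to 10715 to 18351 CPM in the Sox17-deleted hypoxic libraries and 16018 to 17886 CPM in the controls. Their most abundant gene was Ramp2, a partner of the adrenomedullin receptor. Cardiomyocyte markers, led by the myosin gene Myh6, summed to 39.7 to 339 CPM in the Sox17-deleted hypoxic libraries and 12.45 to 47.6 CPM in the controls.

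The levels of the members spanned the whole range from abundant to undetected. Since each transcript is read from its 3′ end alone, long and short transcripts yield like numbers of tags, and CPM can be compared between genes without division by length. Lyve1 was the most abundant, with a mean of 1401 ± 333 CPM in the controls (SD, n = 4), the 63rd highest of 23238 genes there. In the control libraries every value of Lyve1 lay above every value of Ccl21a, and every value of Flt4 above every value of Reln. Ccl21a overlapped with Flt4, and Reln, Thy1 and Mmrn1 overlapped with each other. In the Sox17-deleted hypoxic libraries the order at the top was not the same: Ccl21a exceeded Lyve1 in 3 of 4 libraries, and in none of the controls. The place of Ccl21a in these orders depends on how reads were assigned between the CCL21 copies, which is not known. The sum of the copies and Gm1987, which can hold a read more than once, was 1346 CPM in control library 3. Lyve1 was at 906 CPM there, and above that sum in every other control.

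**Figure D1:**
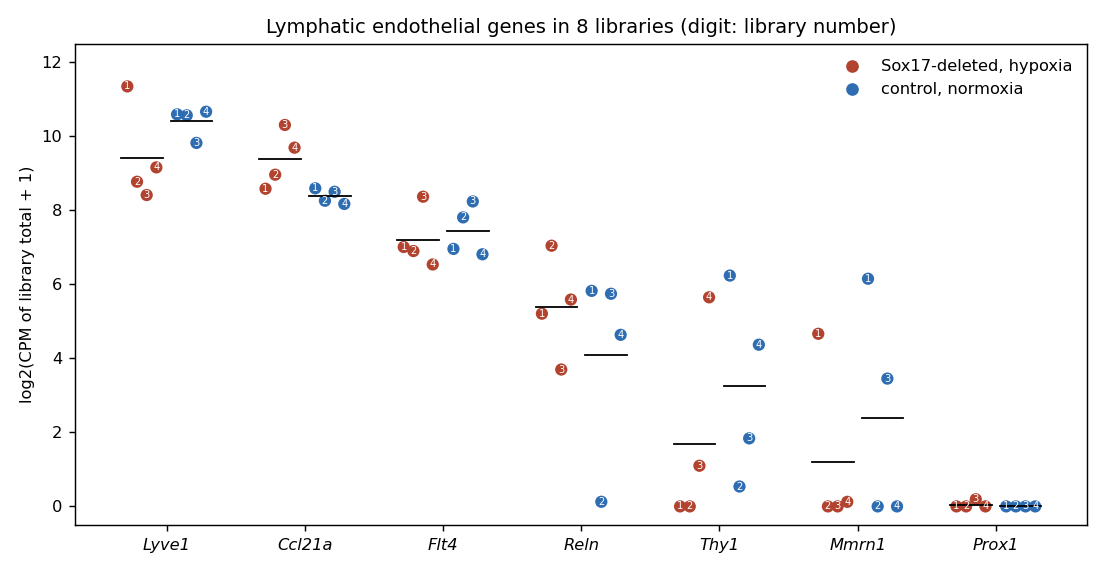
Level of each lymphatic endothelial gene in each library, as log2(CPM of the library total + 1), with Sox17-deleted hypoxic libraries in red left of control normoxic libraries in blue; digits are library numbers and bars are group means on this scale. Lyve1 is high in Sox17-deleted hypoxic library 1 only within its group, Ccl21a leans higher in Sox17-deleted hypoxic libraries 2 to 4, and Prox1 lies at or near 0 throughout.

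Prox1, the homeobox gene that specifies and maintains lymphatic identity (chromosome 1, 190118035 to 190170714, minus strand, GRCm38), was not detected above the floor of 3 counts. It had 0, 0, 1 and 0 counts in the Sox17-deleted hypoxic libraries and 0 counts in every control library. The defining gene of the lineage was thus at or under the 3-count limit of 0.232 to 0.429 CPM in all 8 libraries, so the members are lymphatic endothelial genes by name, and these libraries do not show by Prox1 that their transcripts come from lymphatic cells. The annotation places the antisense genes Gm28172 and Prox1os over Prox1, and neither has a row in the tables. Neuroendocrine markers, whose cells can also carry Prox1, summed to at most 1.42 CPM in any library, with 4 of 7 at 0 in all of them.

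Lyve1, which encodes a hyaluronan receptor of endothelium (chromosome 7, 110850607 to 110863239, minus strand), split the Sox17-deleted hypoxic group. Its level was 2614, 437, 341 and 573 CPM in Sox17-deleted hypoxic libraries 1 to 4, against 1549, 1520, 906 and 1627 CPM in the control libraries. Sox17-deleted hypoxic library 1 lay above every control library, and the other 3 lay below every control library. The mean was 991 ± 1086 CPM in Sox17-deleted hypoxic libraries and 1401 ± 333 CPM in the controls (SD, n = 4 each). edgeR's quasi-likelihood test gave a log2 fold change of -0.49 (SE 0.56) and, over the 8282 genes tested, an adjusted p of 1.00. With library 1 of that group left out, the mean of the other 3 was 450.3 ± 117 CPM and the log2 fold change -1.62 (SE 0.34). The edgeR adjusted p was then 0.173, the lowest of a range up to 1.00 over the fits that leave out 1 library. The other 3 Sox17-deleted hypoxic libraries are those whose deposited names share a stem, so they may be repeats from the same mouse. Their SD and the SE of that fit may therefore not measure the spread between mice. The library with high Lyve1 is the one that kept 473 Sox17 counts, or 36.6 CPM, against 0.857 to 3.67 CPM in the other 3. That library also had the largest total, 12913304 counts, and the highest sum of general endothelial markers in its group, 18351 CPM. That sum was nearly as high, at 17935 CPM, in Sox17-deleted hypoxic library 3, which had the lowest Lyve1. A link of Lyve1 to the remaining Sox17 was not tested.

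A subset of macrophages carries Lyve1 together with Folr2, Cd163 and F13a1. These genes and Adgre1, the gene of the macrophage antigen F4/80, had 0 counts in all 8 libraries. The 11 macrophage markers with a row summed to 47.0 to 192 CPM in the Sox17-deleted hypoxic libraries and 28.3 to 55.8 CPM in the controls, with Mrc1, the mannose receptor gene, as the most abundant. Their sum was 136 CPM in the Sox17-deleted hypoxic library with the highest Lyve1 and 192 CPM in the one with the lowest. The markers behind these sums differed. C1qb and C1qc were at 44.6 and 80.9 CPM in Sox17-deleted hypoxic library 1, and at most 6.31 and 4.96 CPM in any other library. Cd68 and Csf1r were highest in Sox17-deleted hypoxic library 3, at 81.3 and 75.3 CPM. The part of macrophages in the Lyve1 counts was not tested.

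Ccl21a, which encodes the chemokine that calls CCR7-bearing cells to lymphatics (chromosome 4, 42772860 to 42773993, minus strand), had the lowest p of the members. It stood at 383, 499, 1269 and 829 CPM in Sox17-deleted hypoxic libraries 1 to 4, against 387, 306, 362 and 288 CPM in the controls. Libraries 2, 3 and 4 of the Sox17-deleted hypoxic group lay above every control, and library 1 lay within the control range, so the groups overlapped. The mean was 745 ± 397 CPM in Sox17-deleted hypoxic libraries and 336 ± 46.3 CPM in the controls (SD, n = 4 each), a log2 fold change of 1.20 (SE 0.41). Without Sox17-deleted hypoxic library 1 the mean of that group was 866 ± 386 CPM (SD, n = 3). The unadjusted edgeR quasi-likelihood p was 0.0106 and the adjusted p over all genes 0.493, so the difference did not pass the test. An unadjusted p under 0.05 was found for 5.12% of all genes tested, and for 2.06% with the higher level in the Sox17-deleted hypoxic libraries. Without Sox17-deleted hypoxic library 3, which had the highest level, it was 0.73 on the log2 scale (SE 0.31; edgeR adjusted p 0.480, in a range of 0.289 to 0.990 over the fits that leave out 1 library).

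**Figure D2:**
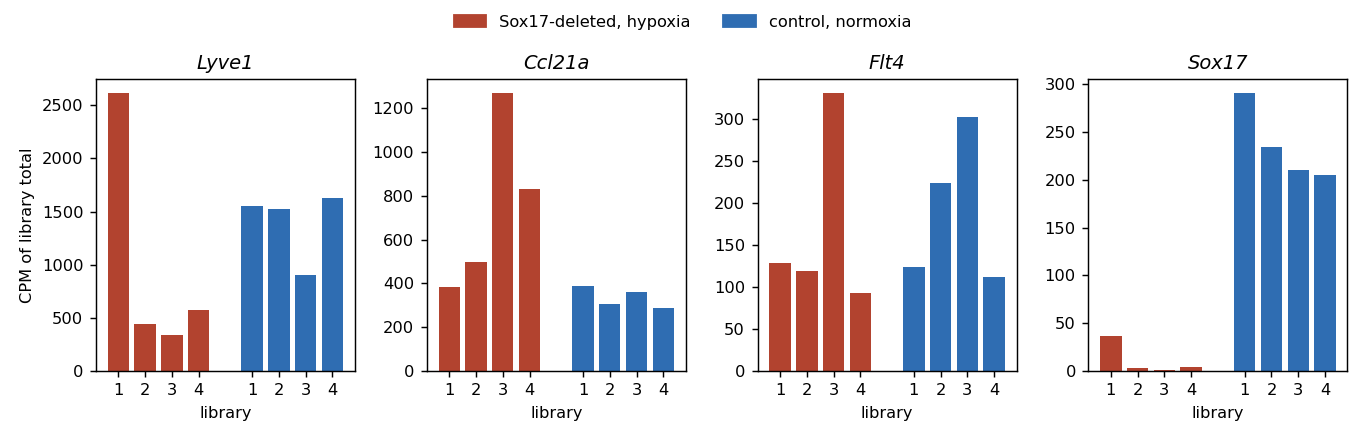
CPM of the library total in each library for Lyve1, Ccl21a, Flt4 and the deleted gene Sox17, on linear axes that start at 0, with Sox17-deleted hypoxic libraries in red left of control normoxic libraries in blue. Sox17-deleted hypoxic library 1 has the highest Lyve1 (2614 CPM), the lowest Ccl21a of its group (383 CPM) and the most remaining Sox17 of its group (36.6 CPM). Whether these values are linked was not tested.

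Ccl21b and Ccl21c ranked the Sox17-deleted hypoxic libraries in the same order as Ccl21a. Ccl21b was at 168, 479, 948 and 822 CPM in the Sox17-deleted hypoxic libraries, against 444, 292, 466 and 396 CPM in the controls. Ccl21c was at 56.7, 202, 367 and 273 CPM in the Sox17-deleted hypoxic libraries, against 145, 128, 155 and 128 CPM in the controls. For both copies Sox17-deleted hypoxic library 1 was the lowest of all 8 libraries, and libraries 2 to 4 lay above every control. The log2 fold changes were 0.64 (SE 0.46) for Ccl21b and 0.73 (SE 0.53) for Ccl21c, each with an edgeR adjusted p of 1.00.

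The split between copies depends on how reads that match several of them were assigned, which the labels and files do not state. Gm1987, a predicted gene singled out after its values were seen, had counts within 0.932 to 1.02 times those of Ccl21a in every library, and exactly the same count in control libraries 1 and 3. Gm10591, Gm13304 and Gm21541 shared 1 count in each library, at 0, 152, 120 and 0 in the Sox17-deleted hypoxic libraries and 0, 141, 0 and 27 in the controls. A read may thus have been counted at more than 1 copy, so the level of a single copy is uncertain and their sum can hold a read more than once. With Gm1987 among them, the 7 copies summed to 995, 1710, 3905 and 2773 CPM in the Sox17-deleted hypoxic libraries, against 1362, 1050, 1346 and 1104 CPM in the controls. Tested as 1 gene, a choice made after seeing the data, the sum had a log2 fold change of 1.00 (SE 0.40) and an edgeR adjusted p of 0.766.

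Ccl21b and Ccl21c together made up 22.6%, 39.8%, 33.7% and 39.5% of the counts of all copies in Sox17-deleted hypoxic libraries 1 to 4, against 43.2%, 40.05%, 46.2% and 47.5% in the controls. The groups did not overlap in this share, by a margin smaller than the spread within either group, and the difference was not tested. The counts of all copies include Gm1987, where reads of Ccl21a may be counted again. The share and the lack of overlap thus depend on how reads were assigned. Ccr7, the receptor gene for CCL21, had no library above 3 counts. Fscn1, the most abundant gene of the mature dendritic cell list, ranged from 17.6 to 164 CPM in the Sox17-deleted hypoxic libraries and from 21.7 to 183 CPM in the controls. Of the 5 genes of that list, Ccr7 among them, Ccl22 and Il4i1 had 0 counts in all 8 libraries. Fscn1 alone thus does not show that such cells were present.

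**Figure D3:**
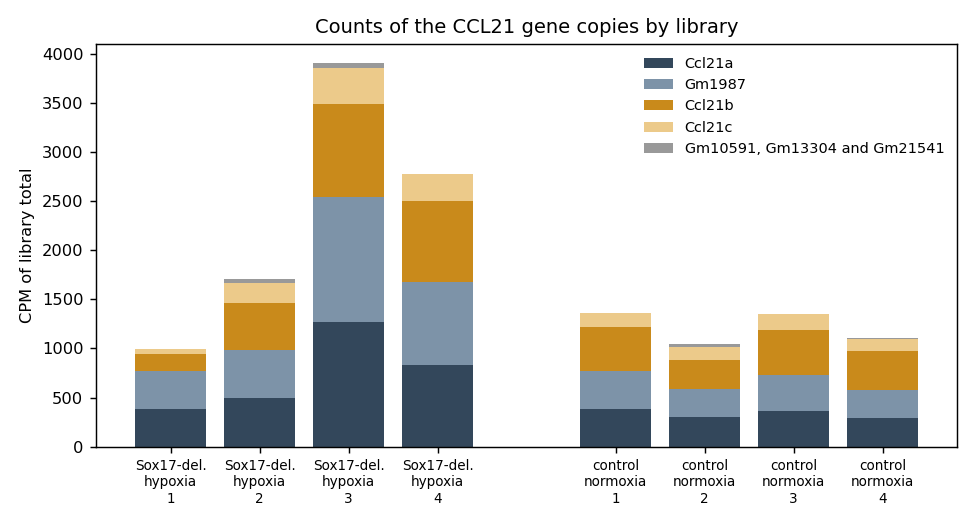
Stacked bars of the CPM of each CCL21 gene copy and of Gm1987 in each library, on a linear axis from 0, with Sox17-deleted hypoxic libraries left of control normoxic libraries. The summed height runs from 995 to 3905 CPM in the Sox17-deleted hypoxic libraries and from 1050 to 1362 CPM in the controls, and Ccl21b and Ccl21c take the smallest share in Sox17-deleted hypoxic library 1.

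Flt4, the gene of the VEGF-C receptor VEGFR-3 (chromosome 11, 49609263 to 49652739, plus strand), did not separate the groups. It stood at 128, 119, 330.3 and 92.03 CPM in the Sox17-deleted hypoxic libraries, against 124, 224, 302 and 112 CPM in the controls. Sox17-deleted hypoxic library 3 and control library 3 were the highest of their groups, and the ranges overlapped almost fully. The mean was 167 ± 110 CPM in Sox17-deleted hypoxic libraries and 190.2 ± 89.9 CPM in the controls (SD, n = 4 each), with a log2 fold change of -0.11 (SE 0.55) and an edgeR adjusted p of 1.00. A p of this size does not show that the groups had like levels, and the direction turned with the scaling: the log2 fold change was 0.02 with RLE size factors.

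Reln encodes reelin, a secreted glycoprotein of neuronal migration that lymphatic endothelium also makes (chromosome 5, 21884454 to 22344702, minus strand). It had 465, 1240, 84 and 527 counts in the Sox17-deleted hypoxic libraries, against 589, 1, 614 and 284 counts in the controls. Control library 2 thus had a single count of a gene that the other 3 controls held at 23.9 to 55.7 CPM. The mean was 56.6 ± 51.9 CPM in Sox17-deleted hypoxic libraries and 33.1 ± 26.3 CPM in the controls (SD, n = 4 each), with a log2 fold change of 0.75 (SE 1.44) and an edgeR adjusted p of 1.00. Leaving out the highest library, number 2 of the Sox17-deleted hypoxic group, gave -0.03.

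Thy1 encodes a membrane glycoprotein of T cells, fibroblasts and some lymphatic endothelium (chromosome 9, 44043384 to 44048579, plus strand). It had 0, 0, 8 and 550 counts in the Sox17-deleted hypoxic libraries, against 788, 5, 30 and 234 counts in the controls. A single Sox17-deleted hypoxic library, number 4, held nearly all the counts of its group, and the log2 fold change of -1.01 had an SE of 2.45 and an edgeR adjusted p of 1.00. It was -5.85 without that library and 0.73 without control library 1, so single libraries set its size and its sign. The T cell markers summed to 188 CPM in that same library and to 0 CPM in the other 3 Sox17-deleted hypoxic libraries, against 0.0859 to 33.7 CPM in the controls. Cd2, the most abundant of them, was at 102 CPM there, and Cd247, the gene of the T cell receptor zeta chain, at 58.6 CPM. The other receptor subunit genes of the list, Cd3d, Cd3e and Cd3g, had 0 counts there. In control library 1, where Thy1 was the highest of all libraries at 74.6 CPM, the T cell markers summed to 11.3 CPM. Fibroblast markers, led by Col1a2, summed to 137 to 1131 CPM in the Sox17-deleted hypoxic libraries and 272 to 466 CPM in the controls. Their sum was 947 CPM in Sox17-deleted hypoxic library 4 and 366 CPM in control library 1. It was highest, at 1131 CPM, in Sox17-deleted hypoxic library 2, where Thy1 had 0 counts. The part of either cell type in the Thy1 counts was not tested.

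Mmrn1 encodes multimerin, a protein of endothelium and platelets that binds coagulation factor V (chromosome 6, 60924976 to 60989378, plus strand). It had 315, 0, 0 and 1 counts in the Sox17-deleted hypoxic libraries, against 742, 0, 116 and 0 counts in the controls. Counts above the floor thus appeared in 1 Sox17-deleted hypoxic library and 2 control libraries, and the gene did not pass the filter on low counts. The Sox17-deleted hypoxic mean of 6.12 CPM was 0.0299 CPM without library 1, beside 20.05 CPM in the controls. Tested without that filter, edgeR gave a log2 fold change of -1.71 (SE 2.78) and an adjusted p of 0.945, in a fit that called 0.121% of genes and no member. Megakaryocyte and platelet markers were near absent, with Gp9, Gp1ba, Gp5, Treml1 and Tubb1 at 0 in all 8 libraries. Their sum was highest in control library 1, at 12.6 CPM, where Mmrn1 was highest too at 70.2 CPM, and it was 0.774 CPM in Sox17-deleted hypoxic library 1, where Mmrn1 was at 24.4 CPM. The leading marker was Itga2b, the integrin alpha IIb gene, at up to 6.25 CPM in the controls and 0 in the Sox17-deleted hypoxic libraries. Pf4, of the same list, went the other way, at up to 5.86 CPM in the Sox17-deleted hypoxic libraries and 0.0859 CPM in the controls. Its highest value was in Sox17-deleted hypoxic library 3, where the markers summed to 6.57 CPM and Mmrn1 had 0 counts.

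Such gaps were common at these levels. Among the 3355 genes with a mean of 5 to 20 CPM, 58.0% of values in the Sox17-deleted hypoxic libraries were 0 or 1 count, and 34.8% in the controls. For the 4248 genes of 20 to 100 CPM the shares were 18.3% in the Sox17-deleted hypoxic libraries and 5.01% in the controls. A value of 0 for Mmrn1 or Thy1, or 1 count for Reln, thus does not show that the transcript was absent from the tissue.

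Across the comparison, 5 of the 7 members passed the filter on low counts and none was called by edgeR at an adjusted p of 0.05, where 0% of the 8282 genes tested were called. The unadjusted p was under 0.05 for 1 member and for 424 genes in all. By DESeq2, which called 4.78% of the genes to which it gave an adjusted p, and by limma-voom, which called 0.531%, no member was called either. DESeq2 could not call Lyve1, to which it gave no p, or Prox1, to which it gave no adjusted p. None of the 5 members had groups free of overlap, which 6.59% of all genes tested had, with 1.63% higher and 4.96% lower in the Sox17-deleted hypoxic libraries. Of the members tested, 2 had a log2 fold change above 0 and 3 below. Their median was -0.11, beside -0.01 over all genes tested.

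How alike the members' profiles were across libraries differed between pairs. The distance between a pair was taken as the root mean square difference of their log2(CPM + 1) values over the 8 libraries, each gene centred on its own mean. Lyve1 and Ccl21a were 1.59 apart and Lyve1 and Flt4 1.31, both farther than the median of 1.09 between Lyve1 and the 580 genes of similar level. Ccl21a and Flt4 were the closest pair at 0.86, nearer than the median of 0.93 for Ccl21a and 1500 genes and that of 1.22 for Flt4 and 3770 genes. Reln was 1.99 to 2.38 from the other 3, under its own median of 2.64 over 6135 genes. Each median covers genes within 4-fold in level of the member named. Flt4 lies outside that window for Lyve1, and Lyve1 and Ccl21a lie outside it for Reln. Their distances are thus not set against genes of like level. These distances are descriptions, with no test.

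Nearest genes were looked for among tested genes with predicted genes passed over, for the 4 members averaging 20 CPM or more. The passed-over genes include Gm1987, whose counts followed those of Ccl21a closely as given above. Nearest to Lyve1 were Fmo1, a flavin-containing monooxygenase gene, at a distance of 0.37, and Cebpd, a C/EBP transcription factor gene, at 0.39. Fmo1 was at 819, 217, 222 and 288 CPM in the Sox17-deleted hypoxic libraries, against 1001, 897, 616 and 1182 CPM in the controls, with library 1 again the highest of its group. Nearest to Ccl21a among the genes kept were Sod1, the cytosolic superoxide dismutase gene, at 0.15, and Cetn3, the centrin 3 gene, at 0.26. Sod1 averaged 1632 ± 826 CPM in the Sox17-deleted hypoxic libraries and 799 ± 21.6 CPM in the controls. Nearest to Flt4 were Mtss1, an actin-binding scaffold gene, at 0.23, and Emc6, which encodes a subunit of a membrane protein insertion complex, at 0.27. Nearest to Reln were Cldn18, a claudin gene of alveolar epithelium, at 0.67, and Ruvbl1, an ATPase gene, at 0.70, and both shared its low value in control library 2.

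Other genes of the lymphatic pathway were read from a list of 37 symbols, of which 36 had a row. Of these, 24 passed the filter, none was called by edgeR, where 0% of all genes were, and none had an unadjusted p under 0.05. Log2 fold changes were above 0 for 10 and below 0 for 14 of them, with a median of -0.10 beside -0.01 over all genes. The 22 that are not CCL21 copies had 8 above 0 and 14 below.

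Among the ligands and their processing, Vegfc, the main VEGFR-3 ligand gene, averaged 85.8 ± 84.0 CPM in the Sox17-deleted hypoxic libraries and 76.7 ± 31.4 CPM in the controls (SD, n = 4 each, as for all pairs that follow). Nrp2, the gene of the co-receptor neuropilin 2, averaged 62.1 ± 44.8 CPM in the Sox17-deleted hypoxic libraries and 35.6 ± 24.6 CPM in the controls. Adamts3, which encodes a protease that activates VEGF-C, and Svep1 had 0 counts in all libraries. Ccbe1, which encodes the cofactor of that protease, was detected in 1 control library only.

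Of the transcription factors, Gata2, needed for lymphatic valves, was the most abundant at 829 ± 569 CPM in the Sox17-deleted hypoxic libraries and 874 ± 168 CPM in the controls. Its value of 30.6 CPM in Sox17-deleted hypoxic library 3 stands against 938 to 1378 CPM in the other 3. Nr2f2, the venous and lymphatic regulator, averaged 129 ± 114 CPM in the Sox17-deleted hypoxic libraries and 112 ± 25.6 CPM in the controls. In the Sox17-deleted hypoxic libraries Sox18 averaged 26.5 ± 28.4 CPM, Nfatc1 55.8 ± 22.6 CPM and Hhex 16.0 ± 26.5 CPM. Hhex was at 2.78 ± 2.41 CPM without Sox17-deleted hypoxic library 1 (SD, n = 3). In the controls Sox18 averaged 16.4 ± 18.5 CPM, Nfatc1 64.3 ± 43.7 CPM and Hhex 43.9 ± 13.8 CPM. The valve regulator Foxc2 was detected in 1 control library. Tbx1, a T-box gene with a role in lymphatic development that was named after its values were seen, had counts in 3 of 4 Sox17-deleted hypoxic libraries, at 8.83, 48.1 and 33.4 CPM, and none in any control. It did not pass the edgeR filter, and DESeq2, which called 4.78% of the genes to which it gave an adjusted p, called it.

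Among receptors and their ligands, Tie1 averaged 703 ± 395 CPM in the Sox17-deleted hypoxic libraries and 863 ± 228 CPM in the controls, and Tek, the gene of the angiopoietin receptor TIE2, 218 ± 57.7 CPM in the Sox17-deleted hypoxic libraries and 291 ± 127 CPM in the controls. The ligand genes Angpt1 and Angpt2 averaged 28.1 ± 21.7 and 12.7 ± 25.3 CPM in the Sox17-deleted hypoxic libraries, against 21.1 ± 16.5 and 39.1 ± 23.4 CPM in the controls. All 4 genes have edgeR adjusted p values of 1.00, and both receptors are shared with blood endothelium.

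Of the further markers, Pdpn, the podoplanin gene of lymphatic endothelium and alveolar type 1 epithelium, had the largest log2 fold change. It was at 86.8, 119, 0 and 68.5 CPM in the Sox17-deleted hypoxic libraries, against 19.3, 21.0, 0 and 8.41 CPM in the controls. Each group has a library at 0, and the log2 fold change of 2.43 had an SE of 1.91 and an edgeR adjusted p of 1.00. No list of alveolar type 1 markers was read. Markers of type 2 cells, another epithelial type, led by Sftpc, summed to 1955 to 4004 CPM in the Sox17-deleted hypoxic libraries. They summed to 904 to 1287 CPM in the controls. In Sox17-deleted hypoxic library 3, where Pdpn was at 0, the type 2 sum was 2124 CPM. The part of epithelium in the Pdpn counts was not tested. Ackr2, which encodes a chemokine-scavenging receptor of lymphatics, averaged 94.9 ± 54.2 CPM in the Sox17-deleted hypoxic libraries and 78.4 ± 21.5 CPM in the controls. Fxyd6, the gene of a regulator of the sodium pump, averaged 72.0 ± 75.0 CPM in the Sox17-deleted hypoxic libraries and 45.9 ± 36.4 CPM in the controls. Pkhd1l1 and Sned1 had 0 counts in all libraries.

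All 4 tested genes of the valve and flow list had a log2 fold change below 0, none past the test. Piezo1, the gene of a mechanically gated channel, averaged 72.6 ± 65.1 CPM in the Sox17-deleted hypoxic libraries and 78.3 ± 11.3 CPM in the controls. Gja4, which encodes a gap junction connexin, averaged 64.1 ± 59.2 CPM in the Sox17-deleted hypoxic libraries and 76.5 ± 6.24 CPM in the controls. In the Sox17-deleted hypoxic libraries Itga9, the integrin gene of lymphatic valves, averaged 22.3 ± 39.4 CPM and Emilin1, a matrix gene, 19.3 ± 22.2 CPM. In the controls Itga9 averaged 51.2 ± 21.6 CPM and Emilin1 43.6 ± 49.8 CPM. For Gja4 and Piezo1 the highest value of the Sox17-deleted hypoxic group, 153 and 157 CPM, was in library 1, the library with the highest Lyve1 and the most Sox17. Without it the means of that group were 34.6 ± 4.71 CPM for Gja4 and 44.4 ± 39.7 CPM for Piezo1 (SD, n = 3). A link of either gene to the remaining Sox17 was not tested.

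**Figure D4:**
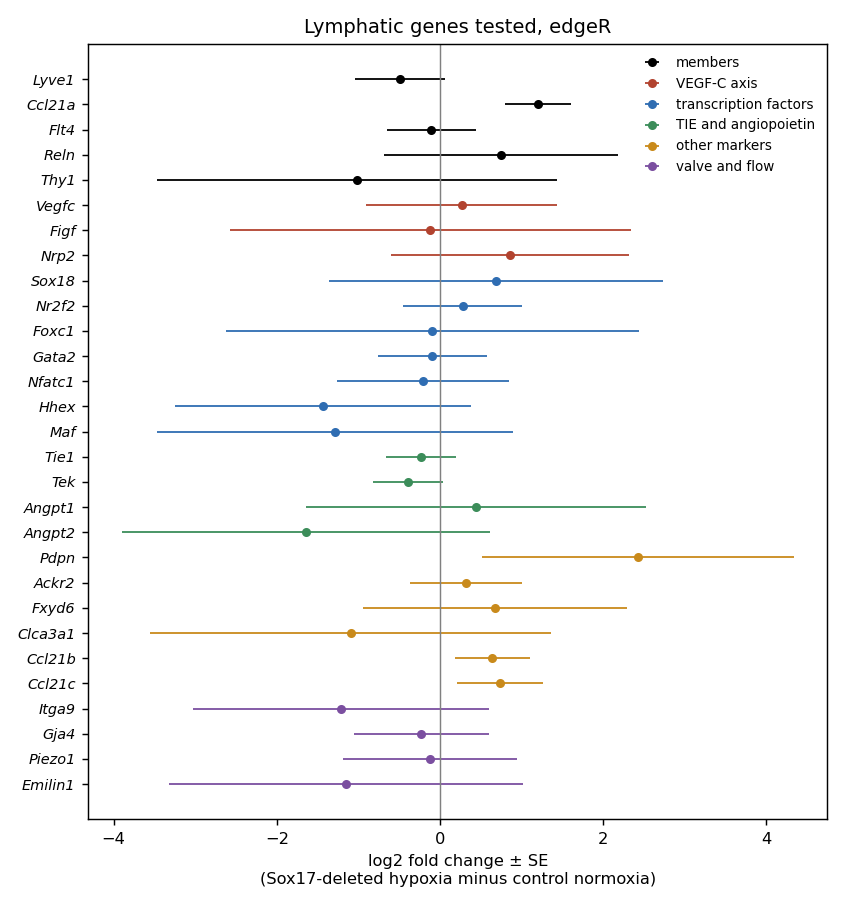
Log2 fold change with its SE (edgeR, Sox17-deleted hypoxia minus control normoxia) for the 5 members tested and the 24 other lymphatic genes tested, coloured by role. Ccl21a at 1.20 has the lowest p of the members, Pdpn at 2.43 the largest value, and no gene shown passed the adjusted threshold.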

How the data were processed

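The authors deposited raw counts by gene symbol, in 1 table per library. Per the labels' protocols, haemagglutinin-tagged ribosomes were immunoprecipitated from lung and QuantSeq 3′ mRNA libraries were made. The build was mm10 and the tools included Bowtie2 and bedtools, per the submitters' processing notes, which list no versions. The labels and files do not state how multi-mapping reads, duplicates and strand were treated. The names of 3 of the 4 hypoxic tables, libraries 2 to 4, share a stem whose meaning is not given.

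Here, 44 rows with repeated symbols were summed. CPM is the count scaled to a library total of 1000000, given with SD over libraries. All 8282 genes passing filterByExpr were tested with edgeR 4.0.16 in R 4.3.3 (TMM factors, group alone, quasi-likelihood F test), with Benjamini-Hochberg adjustment and a threshold of 0.05. SE is the fold change over the square root of F. DESeq2 1.42.0 and limma 3.58.1 were alternatives, and edgeR was tested on simulated data, where at the spread observed here it recovered almost none of the changes put in, so a gene that was not called may still differ. Positions and transcripts come from GENCODE M21 on GRCm38, the same assembly as mm10.

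Members and gene lists were chosen with earlier results of these data known. The rule for genes with full values took all members, other lymphatic genes averaging 20 CPM or more or with an unadjusted p under 0.05, Sox17, the CCL21 copies, the leading gene of each other cell type list, and the 2 tested genes nearest in profile, and within 4-fold in level, to each member averaging 20 CPM or more, predicted genes passed over. Outside it, Tbx1, lymphatic genes at 0 or in 1 library, and cell type markers other than the leading one were named after their values were seen. Alternatives were other scalings, filters and tools, a replicate block, leaving out each library, and, added after seeing the data, summed CCL21 copies.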

Additional observations from a re-analysis of the deposited data

Results flagged for a closer look

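In groups of 4 libraries, a library was set apart when its gap to the nearest other, divided by the range of the group, exceeded Dixon's critical value. This was asked of 54 groups of values, of which chance sets apart about 1 in 20, and values near 0 make it more common. Lyve1 had such a library in both groups, Sox17-deleted hypoxic library 1 (ratio 0.898) and control library 3 (0.852). Sox17-deleted hypoxic library 1 also stood apart for Mmrn1 (0.996), Hhex (0.922) and Gja4 (0.932), each time as the highest. Its Hhex level was 55.7 CPM against 0 to 4.34 CPM in the other 3, and its Gja4 level 153 CPM against 31.7 to 40.0 CPM. Sox17-deleted hypoxic library 4 stood apart as the highest for Thy1 (0.977), Angpt2 (0.998) and Itga9 (0.903). Its Angpt2 level was 50.7 CPM against 0 to 0.106 CPM in the others. Flt4 was highest in Sox17-deleted hypoxic library 3 (0.848), and Mmrn1 in control library 1 (0.858).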

How the results depend on the processing

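No member was called under any of the 17 alternative fits. Over all genes edgeR called 0, but 17 without a low-count filter, 4 among the 2052 genes averaging 100 CPM or more and 1 with robust estimation, while DESeq2 called 469 and limma-voom 44. Leaving out a library gave 0 to 5 calls, the 5 without Sox17-deleted hypoxic library 1. DESeq2 called 1 other lymphatic gene, Tbx1, and no such gene was called when a library was left out. The median log2 fold change of all genes was -0.71 by limma-voom and -0.57 with the replicate block. The Flt4 log2 fold change of -0.11 was 0.019 with RLE factors and 0.016 by DESeq2. Leaving out single libraries took it to between -0.77 and 0.18, that of Reln to between -0.032 (without Sox17-deleted hypoxic library 2) and 1.13, and that of Thy1 to between -5.85 and 0.73 (without control library 1). For Lyve1 it lay between -1.62 and -0.22 and for Ccl21a between 0.73 and 1.47. The adjusted p of Ccl21a in the other alternatives lay between 0.0810 (DESeq2) and 0.888. The cause of these changes was not tested. With the replicate number as a block no gene was called, and Lyve1 had -1.01 and Ccl21a 1.03. Deviations of same-numbered libraries correlated at only -0.0199 to 0.0212 over all genes tested. No general pairing by number was thus seen, but a correlation over all genes cannot exclude a pairing that acts on some of them. DESeq2 gave Lyve1 no p and Prox1 no adjusted p. On TMM-scaled library sizes mean levels moved by less than 1 SD. Leaving out a library put the Sox17-deleted hypoxic mean between 450.3 and 1208 CPM for Lyve1, between 0.0299 and 8.16 CPM for Mmrn1 and between 0.381 and 16.8 CPM for Thy1, and the control mean between 3.32 and 26.7 CPM for Mmrn1 and between 7.57 and 32.3 CPM for Thy1. With 4 libraries a group, spread limits every result.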
